A study of Mus musculus with 8 samples.

Results

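The genes described here are 7 that serve the selection of natural killer T (NKT) cells in the thymus, out of 55359 genes listed for each sample. They were chosen by name: Cd1d1, the SLAM family receptors Slamf1, Slamf6, Ly9 and Cd84, the adaptor gene Sh2d1a and the transcription factor gene Zbtb16. RNA of mouse thymocytes that carried both CD4 and CD8 (double positive, or DP), with TCR beta on the surface negative or low to intermediate, was sequenced in mice 5 weeks of age. The 4 Lck-cre samples (replicates 5 to 8) had the genotype LSL-Sting1-N153S;Lck-cre, and the 4 control samples (replicates 1 to 4) had LSL-Sting1-N153S/+ without Cre. Both groups thus carried LSL-Sting1-N153S, an allele of STING with the activating change N153S behind a stop cassette between loxP sites. Cre from the Lck promoter removes the cassette in developing T cells, and not at the DP stage alone. Replicate 5 of Lck-cre and replicate 1 of control were female, the 3 others of each group male. The labels do not say that each sample came from a separate animal, so the p-values measure the spread between these samples.

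CD1d is a relative of MHC class I that presents lipids in place of peptides. Invariant NKT cells arise from DP thymocytes whose TCR binds CD1d on neighbouring DP thymocytes, and at this contact the SLAM receptors SLAMF1 and SLAMF6 bind their like on the other cell. Their tails recruit SAP, the protein of Sh2d1a, which brings in the kinase Fyn, and selected cells then switch on PLZF, the protein of Zbtb16.

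In Lck-cre DP thymocytes Cd1d1 and Cd84 fell, to 74.1% and 75.3% of the control mean. Slamf1 lay below every control sample but missed the threshold, Sh2d1a, Slamf6 and Ly9 were not called, and Zbtb16 was listed at or near 0 in all 8 samples. Of the 6 genes that could be tested, 2 fell and 0 rose with limma (Benjamini-Hochberg adjusted p under 0.05 over all 12337 tested genes), with a median log2 change of -0.20, against 0.01 over all tested genes. Of all tested genes 25.8% were called, 10.4% lower and 15.4% higher in Lck-cre. The 2 that fell are 33.3% of 6, too few genes to set them apart from the 10.4%.

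**Figure D1:**
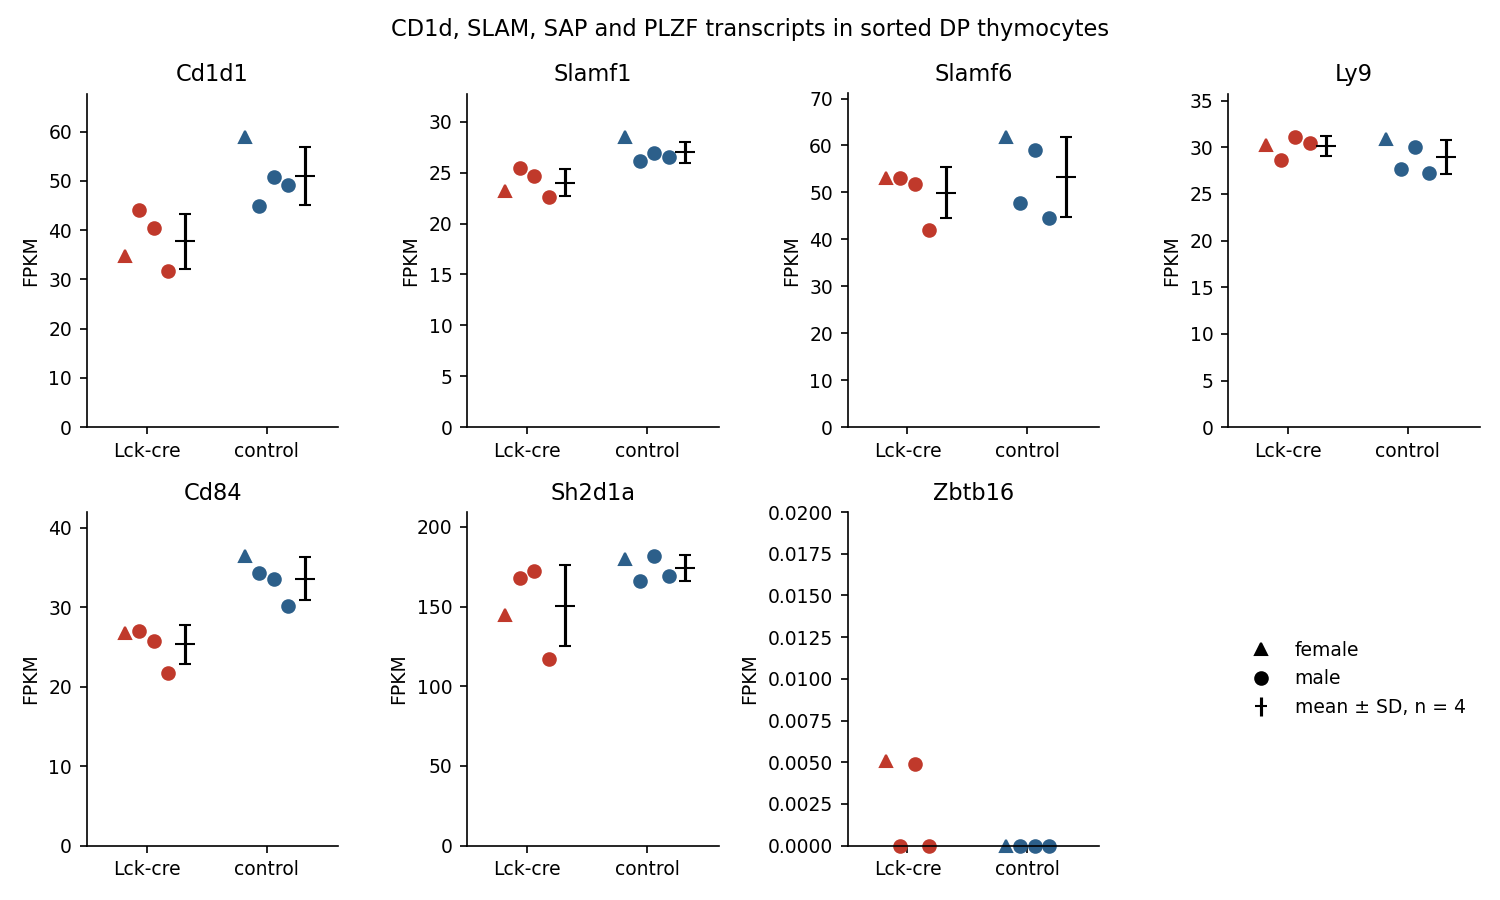
FPKM of the 7 genes in each sample, Lck-cre samples in red and control samples in blue, with triangles for females, circles for males and bars for the mean and SD of 4 samples (none for Zbtb16). All Lck-cre points lie below all control points for Cd1d1, Slamf1 and Cd84, and the Zbtb16 axis ends far below those of the other panels.

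FPKM, which scales fragments by gene length and by mapped fragments, summed to 437778 to 457145 per Lck-cre sample and 413835 to 437426 per control sample. The tables hold no read counts, so depth is unknown. As a proxy for depth, the commonest ratio of coverage per base to FPKM was 7.65 to 7.86 in Lck-cre and 7.53 to 7.89 in control. Sting1 itself lay at 221, 85.4, 130 and 232 FPKM in Lck-cre replicates 5 to 8, against 15.3, 11.6, 13.4 and 11.9 in control replicates 1 to 4. The cells bore the marks of the DP stage, with all 11 DP marker genes above the filter. Their summed level was 4500 to 5780 FPKM in Lck-cre and 5800 to 6230 in control, and 5 of the 11 (Cd4, Rag1, Rag2, Themis and Tespa1) fell, against 10.4% of all tested genes. In these bulk samples fewer cells of a type and less RNA per cell cannot be told apart.

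The 250 bases before the start of Slamf1, Slamf6 and Cd84 are given first, because these 3 neighbouring genes differed in call. They are from RefSeq (GRCm38.p6), which held a promoter entry for 3 of the 7 genes, and all are on the plus strand, 5′ to 3′. Their positions do not match the gene positions given further on, where Slamf1 runs from 171594695 to 171628752, and are not to be compared with them. Capitals mark matches to an E-box (CAGNTG) or an NF-kB site (GGGA and CC with any 4 bases between them) on either strand.
Slamf1, chr1:171766882-171767131: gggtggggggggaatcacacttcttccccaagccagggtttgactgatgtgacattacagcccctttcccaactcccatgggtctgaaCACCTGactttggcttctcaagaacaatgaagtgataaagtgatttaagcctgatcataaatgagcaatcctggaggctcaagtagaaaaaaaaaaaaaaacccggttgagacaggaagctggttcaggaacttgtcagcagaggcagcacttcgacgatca
Slamf6, chr1:171917212-171917461: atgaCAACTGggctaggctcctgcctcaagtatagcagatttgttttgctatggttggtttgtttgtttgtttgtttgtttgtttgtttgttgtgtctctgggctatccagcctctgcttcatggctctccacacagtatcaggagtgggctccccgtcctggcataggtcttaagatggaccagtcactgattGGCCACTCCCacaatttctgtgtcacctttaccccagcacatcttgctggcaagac
Cd84, chr1:171839447-171839696: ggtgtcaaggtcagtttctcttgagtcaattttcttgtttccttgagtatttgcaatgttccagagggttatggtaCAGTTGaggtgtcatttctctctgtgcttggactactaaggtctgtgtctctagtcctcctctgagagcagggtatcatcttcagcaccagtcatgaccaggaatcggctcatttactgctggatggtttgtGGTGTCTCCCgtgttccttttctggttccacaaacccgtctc

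Each of the 3 windows held 1 E-box, and 44.8% of 32851 promoter windows of the same length held at least 1. The Slamf6 and Cd84 windows held 1 NF-kB match each, at 56 and 42 bases before the start, and 17.6% of all windows held one. No window of the 3 matched an interferon-stimulated response element (GAAA and GAAA with any 2 bases between them, in 2.98% of all windows) or an EGR site (GCGNGGGCG, in 4.70%). The matched motifs did not overlap, and a match to these letters is a description of the sequence only.

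Cd1d1 is listed as ENSMUSG00000028076.13 on chromosome 3 (minus strand), positions 86903141 to 86906748 (the tables state no genome build). It lay at 34.7, 44.1, 40.5 and 31.7 FPKM in Lck-cre replicates 5 to 8, against 58.9, 44.9, 50.8 and 49.1 in control replicates 1 to 4. The groups did not overlap, although the highest Lck-cre sample came within 1 FPKM of the lowest control sample. The mean was 37.8 ± 5.59 FPKM in Lck-cre and 51.0 ± 5.87 in control (SD, n = 4 each), or 74.1% of control. Limma put the log2 change at -0.43, with an SE of 0.12 and a 95% interval of -0.70 to -0.17 (adjusted p = 0.0277). The call ended without Lck-cre replicates 5 (adjusted p = 0.117) or 8 (0.0615), without control replicates 1 (0.117), 3 (0.0533) or 4 (0.0567), in males only (0.117) and with no filter on low values (0.10).

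Cd1d2, the second mouse CD1d gene, lies 6053 bases from Cd1d1 on the other strand and fell too. It lay at 5.17, 8.20, 6.26 and 5.52 FPKM in Lck-cre replicates 5 to 8, against 12.2, 8.74, 8.46 and 8.86 in control replicates 1 to 4. The log2 change was -0.57 (SE 0.16, adjusted p = 0.0296 by limma). The call ended under 8 alternatives, among them without Lck-cre replicates 5, 7 or 8 or control replicates 1, 2 or 4, with adjusted p of 0.0550 to 0.108. Of the 100-base windows of the longest Cd1d2 coding transcript 23.3% were identical in Cd1d1, and 14.6% of those of Cd1d1 in Cd1d2 (GENCODE M21), so reads could be shared between the copies. There were 16.6 ± 1.72 FPKM of Cd1d2 per 100 of Cd1d1 in Lck-cre and 18.7 ± 1.73 in control (SD, n = 4 each), a difference that did not pass an exact two-sided permutation test (p = 0.143).

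B2m, the light chain that CD1d shares with MHC class I, moved the other way. It lay at 411, 223, 335 and 438 FPKM in Lck-cre replicates 5 to 8, against 201, 182, 175 and 162 in control replicates 1 to 4. The log2 change was 0.92 (SE 0.17, adjusted p = 0.0104 by limma). B2m stayed called when any single male sample was left out, but not without either female (0.0511 and 0.0514) or with no filter (0.0551). Within each sample, Cd1d1 stood at 8.44, 19.8, 12.1 and 7.24 FPKM per 100 FPKM of B2m in Lck-cre replicates 5 to 8, against 29.3, 24.7, 29.1 and 30.3 in control replicates 1 to 4. The ratio was chosen after the values of both genes were seen, and since neither gene overlapped between the groups and they moved opposite ways, the ratio could not overlap either. It is given as a description, with no test.

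**Figure D2:**
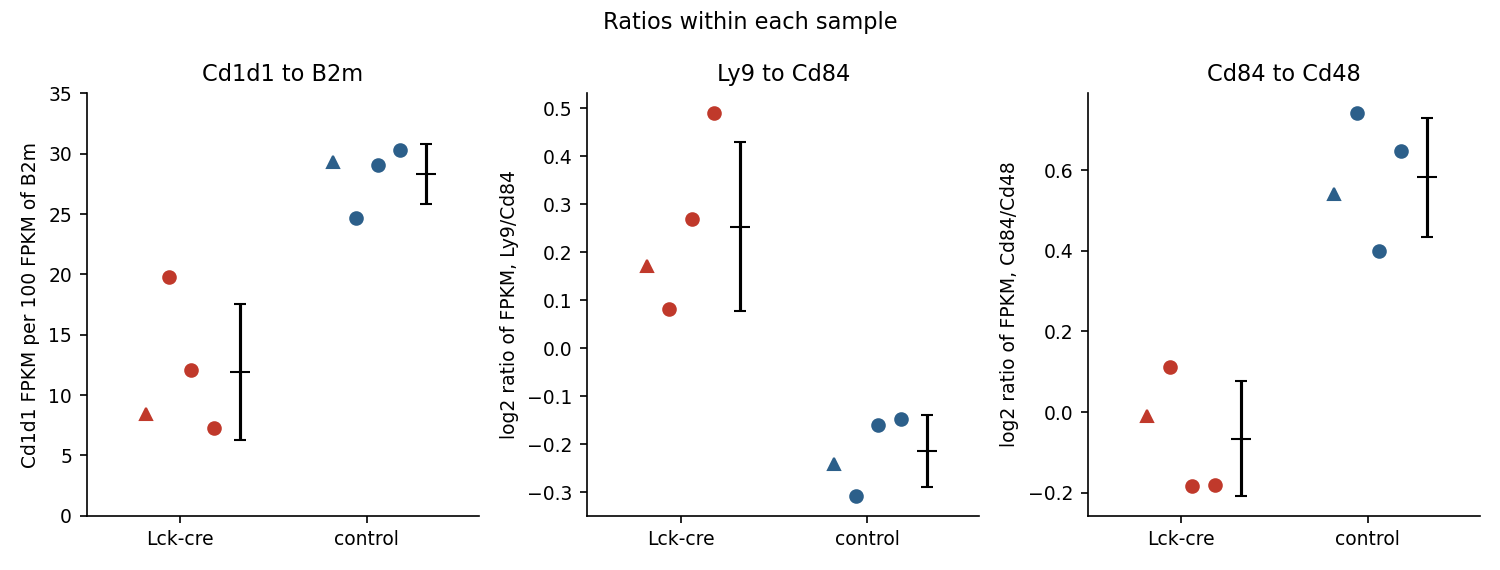
Ratios within each sample, Lck-cre left and control right, with triangles for females, circles for males and bars for the mean and SD of 4 samples. The left panel gives Cd1d1 per 100 FPKM of B2m (11.9 on average in Lck-cre and 28.4 in control), the middle and right panels the log2 ratios of Ly9 to Cd84 and of Cd84 to Cd48, and the groups do not overlap in any panel, which the values of both genes fix in advance for the left one.

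Of the 24 genes listed for CD1d assembly, loading and traffic, 23 were tested, 6 rose, Cd74 among them, and 1 (Cd1d2) fell, with a median log2 change of 0.10. This share, 30.4%, is near the 25.8% of all tested genes. Both the 6 and the share count Cd74, which passed the filter through the Lck-cre samples alone, so neither is read as a result. The risers named by the rule were chaperones of the endoplasmic reticulum that fold class I type heavy chains, B2m and the invariant chain. Calr, or calreticulin, averaged 180 ± 14.7 FPKM in Lck-cre and 133 ± 8.72 in control (log2 change 0.43, adjusted p = 0.00892 by limma). Pdia3, a thiol oxidoreductase, averaged 104 ± 4.75 FPKM in Lck-cre and 83.7 ± 3.72 in control (log2 change 0.31, adjusted p = 0.0105 by limma). The other risers were Canx, or calnexin (log2 change 0.28, adjusted p = 0.0199 by limma), and Gla, a lysosomal galactosidase that trims glycolipids (0.37, 0.0313). With TPM in place of FPKM both missed the threshold (adjusted p = 0.0673 for Canx and 0.057 for Gla by limma), and 4 genes of this list rose. Of the 18 alternatives, Canx lost its call in 6 and Gla in 10.

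Cd74, the invariant chain of MHC class II, which also takes part in CD1d traffic, lay at 3.63, 1.89, 4.58 and 6.28 FPKM in Lck-cre replicates 5 to 8, against 0.896, 0.778, 1.01 and 0.818 in control replicates 1 to 4. Its log2 change was 1.65 (SE 0.27). The Lck-cre samples alone carried it past the filter on low values, while 3 of the 4 control samples lay under 1 FPKM, so its call among the filtered genes is not read as a result. With no filter its adjusted p was 0.0487 by limma. Markers of dendritic cells and macrophages moved with it: their summed level was 7.97 to 14.5 FPKM in Lck-cre and 5.51 to 6.79 in control, and 5 of 10 lay higher in every Lck-cre sample than in any control sample, with most of the sum from Cd68. Of these 10 genes 9 lay below the filter, and Csf1r, Adgre1 and Xcr1 stayed under 0.1 FPKM in all samples. Over all tested genes 29.4% had groups that did not overlap, in either direction, so the 5 of 10 are not read as a result. The part of such cells in the rise of Cd74 was not tested. The lipid transfer and lysosomal genes Psap, Gm2a, Npc1, Npc2, Glb1 and Hexa were not called, nor was Mttp, which lipidates CD1d, at 0.771 to 1.24 FPKM over all 8 samples.

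The SLAM receptor genes stand side by side on chromosome 1. Cd84, a receptor that binds itself on other cells, is listed as ENSMUSG00000038147.15 from 171667265 to 171718285 on the plus strand. It lay at 26.8, 27.0, 25.8 and 21.7 FPKM in Lck-cre replicates 5 to 8, against 36.5, 34.3, 33.5 and 30.1 in control replicates 1 to 4. All Lck-cre samples lay below all control samples, with a gap of about 3 FPKM between the groups. The mean was 25.3 ± 2.49 FPKM in Lck-cre and 33.6 ± 2.62 in control (SD, n = 4 each), or 75.3% of control. Limma put the log2 change at -0.40, with an SE of 0.08 and a 95% interval of -0.59 to -0.22 (adjusted p = 0.0121). The call ended without either female (0.0546 without Lck-cre replicate 5 and 0.0545 without control replicate 1) and in males only (0.0544), at nearly the same log2 change of -0.39.

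Slamf1, whose protein is a self-binding receptor of the DP contact, is listed as ENSMUSG00000015316.12 from 171594695 to 171628752 on the plus strand. It lay at 23.2, 25.5, 24.7 and 22.6 FPKM in Lck-cre replicates 5 to 8, against 28.5, 26.1, 26.9 and 26.5 in control replicates 1 to 4. The groups did not overlap, but the gap between them was under 1 FPKM, and 29.4% of all tested genes had groups that did not overlap. Limma put the log2 change at -0.17, with an SE of 0.06 and a 95% interval of -0.31 to -0.02 (adjusted p = 0.0827). It passed with TPM in place of FPKM (-0.24, adjusted p = 0.0250), with quantile normalization (-0.20, 0.0434) and without Lck-cre replicate 6 (-0.20, 0.0478).

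Slamf6, the other self-binding receptor of the DP contact, is listed as ENSMUSG00000015314.11 from 171745082 to 171780737 on the plus strand. It lay at 53.1, 53.0, 51.8 and 41.9 FPKM in Lck-cre replicates 5 to 8, against 61.8, 47.8, 59.1 and 44.5 in control replicates 1 to 4. The groups overlapped, and limma put the log2 change at -0.09, with an SE of 0.11 and a 95% interval of -0.33 to 0.16 (adjusted p = 0.578). An entry on the other strand that overlaps its start, Gm37065, lay at 42.4, 56.3, 61.8 and 36.4 FPKM in Lck-cre replicates 5 to 8 and at 58.8, 52.8, 54.3 and 47.5 in control replicates 1 to 4. No source used here says whether reads were counted by strand, so reads of Slamf6 and Gm37065 in the overlap cannot be told apart.

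Ly9, which encodes the self-binding receptor SLAMF3, is listed as ENSMUSG00000004707.15 from 171416192 to 171434978 on the minus strand. It lay at 30.2, 28.6, 31.1 and 30.5 FPKM in Lck-cre replicates 5 to 8, against 30.9, 27.7, 30.0 and 27.2 in control replicates 1 to 4. The groups overlapped, and limma put the log2 change at 0.06, with an SE of 0.06 and a 95% interval of -0.08 to 0.20 (adjusted p = 0.513), or -0.02 with TPM. The interval holds no rise above 0.20 and no fall beyond -0.08, both smaller than the fitted fall of Cd84.

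Of the 7 other SLAM family receptors and adaptors, 1 was tested and 6 lay below the filter. Cd48, whose protein binds CD244 and CD2, lay at 27.0, 25.0, 29.3 and 24.6 FPKM in Lck-cre replicates 5 to 8, against 25.1, 20.5, 25.4 and 19.2 in control replicates 1 to 4. Limma put its log2 change at 0.24, with an SE of 0.10 and a 95% interval of 0.01 to 0.46 (adjusted p = 0.107), and it passed only without control replicate 3 (0.0461). The other 6 stayed under 0.1 FPKM in every sample: Cd244a, Slamf7, Slamf8 and Slamf9, receptors better known from NK and myeloid cells, and Sh2d1b1 and Sh2d1b2, adaptors related to SAP. Slamf7 lay at 0.0156 to 0.0534 FPKM in Lck-cre and 0 to 0.0128 in control.

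Ratios between SLAM receptors within a sample do not depend on the scaling between samples, and several of them differed between genotypes. Of 10 pairs among Slamf1, Slamf6, Ly9, Cd84 and Cd48, 6 reached the smallest exact two-sided permutation p that 4 against 4 samples allow (p = 0.0286, adjusted p = 0.0477 over the 10 pairs), and in each of these the groups did not overlap. The ratios were not among the planned comparisons. All pairs draw on the same few genes, so these tests are not independent of each other or of the changes of the single genes. The adjusted value is that low only because 6 pairs tie at the smallest p. The log2 ratio of Cd84 to Cd48 averaged -0.07 ± 0.15 in Lck-cre and 0.58 ± 0.14 in control, a difference of -0.65. That of Ly9 to Cd84 averaged 0.26 ± 0.18 in Lck-cre and -0.21 ± 0.07 in control, a difference of 0.47. Cd84 also fell relative to Slamf6, whose log2 ratio to Cd84 averaged 0.98 ± 0.02 in Lck-cre and 0.66 ± 0.16 in control (SD, n = 4 each).

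Slamf1 fell relative to Ly9 (difference -0.23) and to Cd48 (-0.41), and Slamf6 relative to Cd48 (-0.33). The remaining 4 pairs were not told apart by the exact permutation test: the differences were 0.24 for Slamf1 to Cd84 (adjusted p = 0.0816), -0.18 for Ly9 to Cd48 (0.107), -0.14 for Slamf6 to Ly9 (0.318) and -0.08 for Slamf1 to Slamf6 (0.486). As a description, the 5 receptors did not all move alike, and the ratios add no separate test of this.

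**Figure D3:**
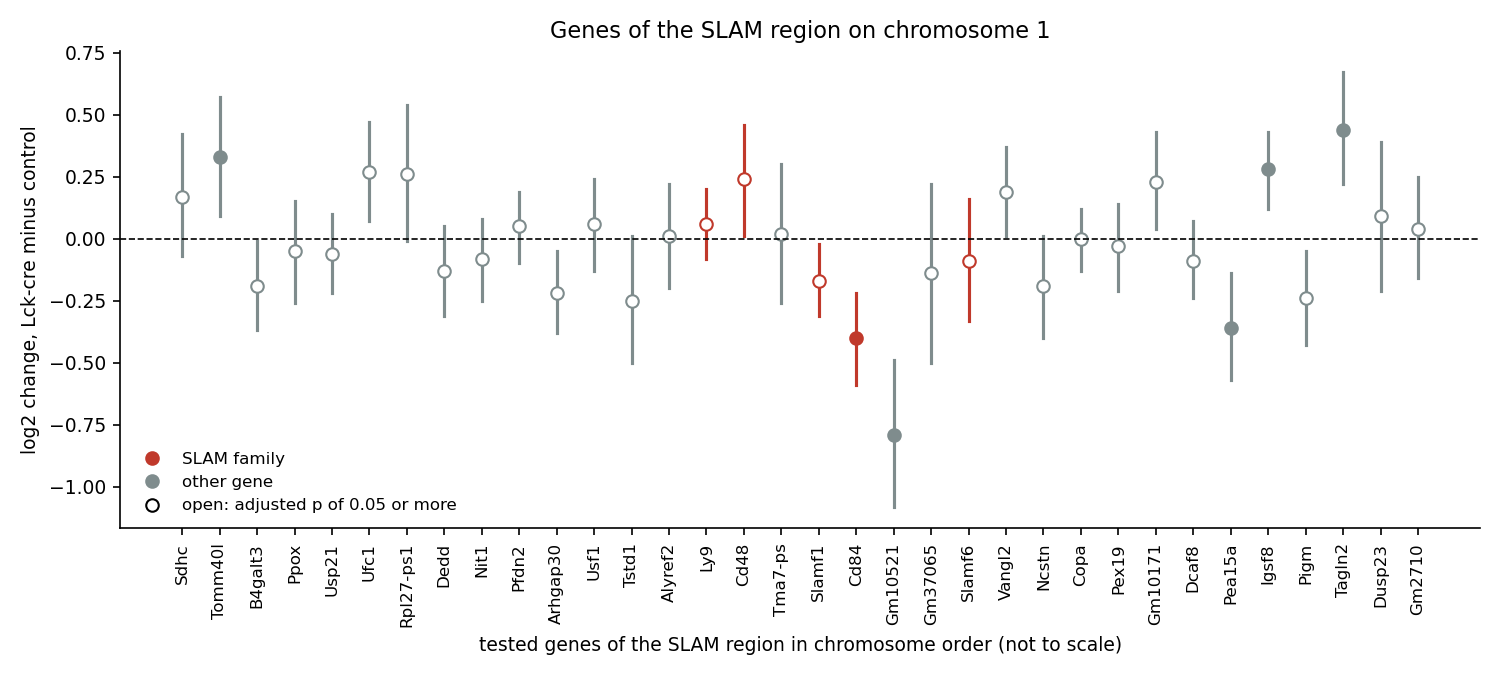
Log2 change (Lck-cre minus control, with its 95% confidence interval) of 34 of the 35 tested genes of the SLAM region in chromosome order, SLAM genes in red, other genes in grey, and open points for an adjusted p of 0.05 or more. Points lie on both sides of 0 along the region, and the lowest 2 are Gm10521 (-0.79) and its neighbour Cd84 (-0.40).

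The region around these genes, from 500 kb before the first SLAM family gene to 500 kb after the last, held 100 entries, of which 35 were tested, 4 rose and 3 fell. Its median log2 change was -0.00, and 7 of 35 is below the share of called genes among all tested genes. Gm10521, a predicted gene that lies between Cd84 and Slamf6 on the same strand, averaged 4.33 ± 0.435 FPKM in Lck-cre and 7.89 ± 1.34 in control (log2 change -0.79, SE 0.13, adjusted p = 0.00807 by limma). Pea15a, an adaptor of ERK and death domain signalling, fell as well (log2 change -0.36, adjusted p = 0.0284 by limma). Among the 4 that rose were Tagln2, an actin-binding protein (0.44), Tomm40l, a protein of mitochondrial import (0.33), and Igsf8, a tetraspanin partner (0.28). Their adjusted p by limma lay between 0.0161 and 0.0473.

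Sh2d1a, the gene of SAP, is listed as ENSMUSG00000005696.12 on chromosome X (plus strand), positions 41591330 to 41618207. It lay at 145, 168, 172 and 117 FPKM in Lck-cre replicates 5 to 8, against 180, 166, 182 and 169 in control replicates 1 to 4. The mean was 150 ± 25.0 FPKM in Lck-cre and 174 ± 7.94 in control (SD, n = 4 each), and the groups overlapped, with replicates 5 and 8 of Lck-cre below all control samples. Limma put the log2 change at -0.23, with an SE of 0.12 and a 95% interval of -0.49 to 0.04 (adjusted p = 0.174), and without Lck-cre replicate 8 it was -0.11 (0.353). The gene is X-linked, and its fitted difference between female and male was 0.01 (log2).

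Of 15 genes of SLAM and SAP signalling, all were tested, 4 fell and 0 rose with limma, or 26.7% lower against 10.4% lower of all tested genes, with a median log2 change of -0.10. In either direction the share called, 26.7%, is near the 25.8% of all tested genes. Fyn, the kinase that SAP recruits, lay at 33.3, 39.7, 37.7 and 29.2 FPKM in Lck-cre replicates 5 to 8, against 52.4, 43.6, 47.5 and 45.8 in control replicates 1 to 4. Its log2 change was -0.44 (SE 0.10, adjusted p = 0.0178 by limma). Pik3r1, a regulatory subunit of PI3 kinase, averaged 29.4 ± 1.0 FPKM in Lck-cre and 35.2 ± 0.705 in control (log2 change -0.26, adjusted p = 0.0140 by limma). Rasa1, a brake on Ras, and Prkcq, a protein kinase C of the TCR pathway, fell by 0.25 and 0.24 on the log2 scale (adjusted p = 0.0376 and 0.0386 by limma). The calls of Fyn, Rasa1 and Prkcq ended without either female and with no filter, and those of Rasa1 and Prkcq without several other single samples, with adjusted p of up to 0.106 and 0.142. The SLAM phosphatases Ptpn6, Ptpn11 and Inpp5d were not called.

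Zbtb16 is listed as ENSMUSG00000066687.6 on chromosome 9 (minus strand), positions 48565597 to 48747522. It was listed at 0.00509 FPKM in Lck-cre replicate 5, at 0.00488 in replicate 7 and at 0 in the other 6 samples, so no fold is given. It lay far below the filter and was not in the fit, and its group means gave p = 0.429 in the exact two-sided permutation test. PLZF marks NKT cells after selection, and other genes of mature NKT cells were sparse too. Of 14 such genes 3 were tested, and Klrb1c, Xcl1, Ifng, Cxcr3, Klrd1 and Klrk1 stayed under 0.1 FPKM in every sample. Icos, a costimulatory receptor, was the 1 of the 3 tested that fell, at 1.73 ± 0.727 FPKM in Lck-cre and 3.87 ± 0.766 in control (log2 change -1.01, SE 0.23, adjusted p = 0.0162 by limma). Of all tested genes 10.4% fell, and with 3 tested genes this count is not read as a result. The call of Icos ended without either female (0.0736 and 0.0744), without control replicate 2 (0.0503), in males only (0.0738) and with no filter (0.0768). The summed level of the 14 was 19.6 to 21.1 FPKM in Lck-cre and 20.1 to 27.2 in control.

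**Figure D4:**
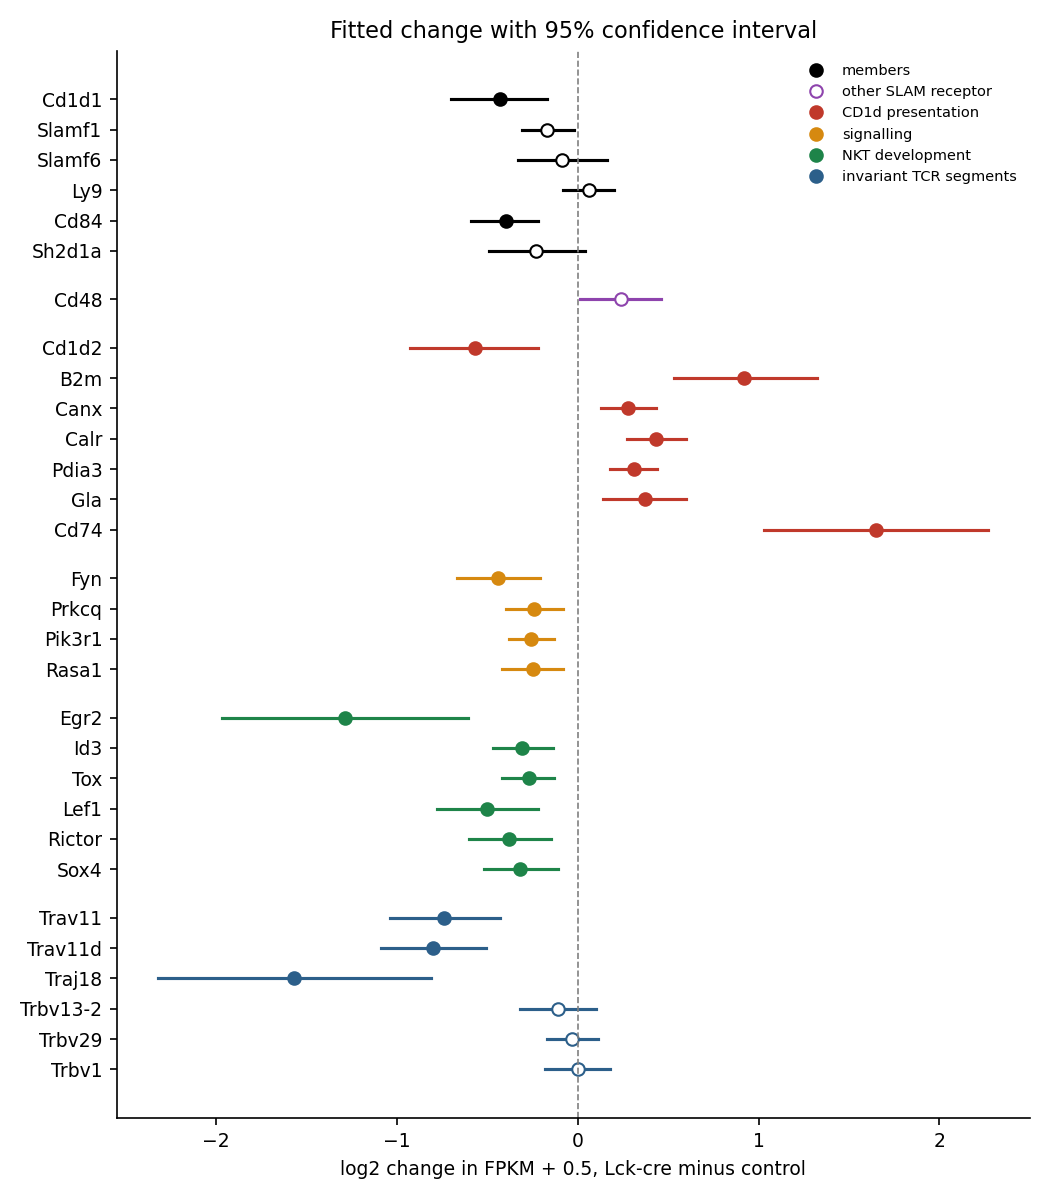
Fitted log2 change (Lck-cre minus control) with its 95% confidence interval for the 6 tested genes (members), Cd48, the called genes of the CD1d presentation, SLAM signalling and NKT development lists, and the invariant TCR segments, coloured by list, with filled points for an adjusted p under 0.05. Cd1d1, Cd84, Cd1d2, Fyn, Egr2 and the alpha chain segments lie below 0, while B2m and the chaperones lie above it. Cd74 is drawn as well, but it passed the filter through the Lck-cre samples alone, and its filled point is not read as a result.

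Of 6 segments of the invariant NKT TCR, all tested, the 3 alpha chain segments fell and the 3 beta segments did not pass. Of all tested genes 10.4% fell, and 6 segments are too few to set them apart from that share. Traj18, the J segment of the invariant alpha chain, lay at 2.34, 2.05, 1.99 and 0.312 FPKM in Lck-cre replicates 5 to 8, against 6.13, 5.99, 4.61 and 4.68 in control replicates 1 to 4 (log2 change -1.57, SE 0.33, adjusted p = 0.0138 by limma). The V segments Trav11 and Trav11d averaged 1.24 ± 0.150 and 1.20 ± 0.132 FPKM in Lck-cre, against 2.41 ± 0.435 and 2.48 ± 0.401 in control (log2 changes -0.74 and -0.80, adjusted p = 0.00988 and 0.00757 by limma). These V segments are near-identical copies, so their reads may be shared and their calls are not independent. Reads of a segment come from all cells that transcribe or have joined it, not from invariant NKT cells alone. The beta segments used by invariant NKT cells, Trbv13-2, Trbv29 and Trbv1, had log2 changes of -0.11, -0.03 and -0.00, with adjusted p of 0.413 to 0.991 by limma. With quantile normalization Trbv13-2 passed as well (0.0436), which made 4 segments lower.

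Of 32 genes known to act in NKT cell development, 26 were tested, 6 fell and 0 rose with limma, or 23.1% lower against 10.4% lower of all tested genes. In either direction the share called, 23.1%, is below the 25.8% of all tested genes. With TPM values 10 fell, while over all tested genes 2067 fell with TPM and 1279 with FPKM. Egr2, a TCR-induced factor that switches on Zbtb16 in selected cells, lay at 2.04, 4.02, 2.82 and 0.969 FPKM in Lck-cre replicates 5 to 8, against 7.18, 6.92, 6.01 and 4.96 in control replicates 1 to 4 (log2 change -1.29, SE 0.30, adjusted p = 0.0176 by limma). Id3, an inhibitor of E proteins, averaged 58.5 ± 4.96 FPKM in Lck-cre and 72.3 ± 2.45 in control (log2 change -0.31, adjusted p = 0.0179 by limma). Tox, an HMG box factor, fell to 17.3 ± 0.941 FPKM in Lck-cre, against 21.0 ± 1.68 in control (adjusted p = 0.0186 by limma). Lef1, a Wnt pathway factor, fell to 84.2 ± 15.5 FPKM in Lck-cre, against 118 ± 7.54 in control (adjusted p = 0.0219 by limma). Sox4 and Rictor fell too, while Myb, Tcf12 and Runx1, which act before selection, were not called. The calls of Egr2, Id3, Tox and Lef1 ended without either female (adjusted p of 0.0717 to 0.0810), and those of Egr2, Tox and Lef1 also without control replicate 2 (0.0562 to 0.0680).

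Of the called genes named here from the 7, the pathway lists and the SLAM region, and leaving Cd74 aside, Calr, Pik3r1, Trav11d and Gm10521 kept their call in all 18 alternatives, and every other one lost it without either female sample, which leaves 3 males against 3 males.

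Among the levels themselves, by FPKM, Sh2d1a stood highest in both groups, at the 96.9th percentile of all tested genes. Slamf6 and Cd1d1 came next, with overlapping ranges in both groups. In Lck-cre they were followed by Ly9, which lay above all values of Cd84, whose range overlapped that of Slamf1. In control Cd84 averaged more than Ly9, with overlapping ranges, and Slamf1 had the lowest mean of the 6 tested genes. This order depends on the measure. By coverage per base Slamf6 was the lowest of the 6, at 56.2 to 64.0 in Lck-cre and 54.7 to 74.0 in control. Coverage of Sh2d1a (139 to 212 in Lck-cre and 202 to 232 in control) overlapped that of Cd1d1 (150 to 212 and 209 to 273).

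Within the Lck-cre group the order of the samples differed from gene to gene. Lck-cre replicate 8, with the highest Sting1 level (232 FPKM), was the lowest for 5 of the 6 tested genes, all but Ly9. Replicate 6, with the lowest Sting1 level (85.4 FPKM), was the highest for 3 (Cd1d1, Slamf1 and Cd84) and the lowest for 1 (Ly9). Replicate 7 (Sting1 at 130 FPKM) was the highest for 2 (Ly9 and Sh2d1a) and the lowest for 0. Replicate 5, with Sting1 at 221 FPKM, close to that of replicate 8, was the highest for 1 (Slamf6) and the lowest for 0. With 4 samples this order was not tested, and scaling between samples moves all genes of a sample together.

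The members that were tested were compared with the tested genes outside the 7, by Pearson correlation of log2(FPKM + 0.5) over the 8 samples. The 7 genes were not ranked against each other. Of the genes outside the 7, Fyn (r = 0.990) and Cdk10 (0.986) were most like Cd1d1. They were also the 2 most like Slamf1 (both 0.991). Cd84 was most like Slco3a1 (0.997) and Mbnl2 (0.988), Sh2d1a most like S100a10 (0.997) and Arrdc2 (0.983), Slamf6 most like Stambp (0.978) and Smpdl3a (0.966), and Ly9 most like Rnf185 (0.979) and Rsph3b (0.954). The 8 points of a pair share library and scaling, and both genotypes are among them. For Cd1d1, 556 of the tested genes outside the 7 had r above 0.9, for Cd84 669, and for Ly9 40.

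Markers of other cells that could bear CD1d or SLAM receptors were summed by cell type. The sums of gamma delta T cell and NK cell genes did not overlap between the groups. Those of B cell, double negative and mature single positive thymocyte genes did. Of 7 B cell genes, Ms4a1, Pax5, Ebf1 and Cr2 stayed under 0.1 FPKM, and the summed level, mostly Cd79b, was 7.87 to 15.5 FPKM in Lck-cre and 12.4 to 17.0 in control. The 5 gamma delta T cell genes summed to 48.8 to 87.5 FPKM in Lck-cre and 29.3 to 30.1 in control, and 4 of the 5 lay higher in every Lck-cre sample than in any control sample. Over all tested genes 29.4% had groups that did not overlap, in either direction, and 2 of these 5 genes lay below the filter. Of the 7 NK cell genes 2 were tested and 1 rose, and they summed to 36.5 to 90.3 FPKM in Lck-cre and 18.4 to 29.2 in control, mostly from Gzma, with Ncr1 and Klra8 listed at 0 in all samples. Double negative thymocyte genes summed to 45.4 to 84.4 FPKM in Lck-cre and 43.8 to 46.7 in control, and 1 of the 4 tested rose. Genes of mature single positive thymocytes summed to 81.9 to 99.6 FPKM in Lck-cre and 80.0 to 92.4 in control, and 2 of the 4 tested rose. Of all tested genes 15.4% rose, and with 2 or 4 tested genes per list these counts are not read as results.

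Thymic epithelial genes summed to 3.99 to 5.33 FPKM in Lck-cre and 3.48 to 5.61 in control, erythroid genes to at most 0.350 in Lck-cre and 0.123 in control, and those of fibroblasts and endothelium to 50.1 to 57.6 in Lck-cre and 43.6 to 52.9 in control, nearly all from Pecam1. The part of these cells in the changes of Cd1d1 and Cd84 was not tested.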

How the data were processed

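The authors deposited 1 table per sample with each gene's FPKM, TPM and coverage. Per the labels, RNA was prepared with the RNeasy Mini Kit. The submitters' processing notes name HISAT and Bowtie2. No source used here gives the quantifier, versions, genome build or strandedness. The columns are FPKM, TPM and coverage signal per the file headers, used as the authors deposited them.

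Entries sharing a gene ID were summed. The filter kept genes that reached 1 FPKM in 4 or more of the 8 samples. Limma 3.58.1 in R 4.3.3 compared genotypes, two-sided, adjusting for sex, on the scale log2(FPKM + 0.5) with a trended prior. Adjusted p-values cover all tested genes. Fold changes on this scale understate those of low genes. Single values used an exact permutation test over all 70 assignments (SciPy 1.17.1). Of 174 list entries, 172 matched by symbol and 2 by an older symbol. The members and lists were chosen with earlier results of these data known. Named genes followed a rule: all 7 genes, the other SLAM genes and the TCR segments. Of each list and direction it took the up to 4 called genes with the smallest adjusted p. It also took the 2 genes outside the 7 most correlated with each tested one of the 7. Further genes named only as not called, and Canx, Gla, Sox4 and Rictor, were added after their values were seen. Correlations between samples of a group were 0.983 to 0.992, and any pair of samples shared 0 identical expressed values. The fit was checked on simulated data. Alternatives covered scaling, pseudocount, filter, covariate, prior and left-out samples. A few genes of the lists are counted but not reported here by name.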

Additional observations from a re-analysis of the deposited data

Results flagged for a closer look

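Slamf6 in Lck-cre replicate 8 lay at 41.9 FPKM, and the nearest of the other 3 Lck-cre samples at 51.8. This gap was 0.882 of the group's whole range, above Dixon's 95% critical value for 4 samples. It was the 1 far sample among 26 groups examined (13 genes in both genotypes), and chance gives about 1 in 20.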

How the results depend on the processing

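Of the log2 changes of the 6 tested genes under 18 alternatives, 94 kept direction and call, 10 lost the call, 3 gained it and 1 turned. With TPM, Slamf1 passed (-0.24), Ly9 turned to -0.02, 1300 genes rose and 2067 fell over all genes (1901 and 1279 with FPKM), and 10 NKT development genes fell. With quantile normalization Slamf1 passed (-0.20), and 2 CD1d presentation genes and 4 TCR segments fell. In males only, Cd1d1 (-0.32) and Cd84 (-0.39) missed the threshold and 0 of the 7 genes fell. Over all genes 425 then rose and 227 fell. Of the lists, 1 SLAM signalling gene fell, 2 CD1d presentation genes rose and 0 fell, 0 NKT development genes fell, 1 TCR segment fell and 0 mature NKT genes fell. With no filter Cd1d1 missed (-0.43), 1 of the 7 genes fell, 696 genes rose and 360 fell over all genes, 1 SLAM signalling gene fell, 3 CD1d presentation genes rose and 0 fell, 1 NKT development gene fell and 0 mature NKT genes fell. With no trend in the prior, 2 SLAM signalling genes fell. The counts of CD1d presentation genes that rose include Cd74.

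Leaving out 1 sample at a time, the log2 change ranged over -0.52 to -0.32 for Cd1d1, -0.45 to -0.34 for Cd84, -0.20 to -0.13 for Slamf1, -0.30 to -0.11 for Sh2d1a, -0.15 to -0.01 for Slamf6 and 0.03 to 0.09 for Ly9. Of the 7 genes 0 to 3 fell, and over all genes 419 to 2215 rose and 226 to 1674 fell. Calls ranged over 0 to 1 (other SLAM genes, higher), 1 to 4 (SLAM signalling, lower), 2 to 6 and 0 to 1 (CD1d presentation, higher and lower), 0 to 1 and 0 to 7 (NKT development, higher and lower), 1 to 3 (TCR segments, lower) and 0 to 1 (mature NKT genes, lower). The lowest counts over all genes came without a female sample (Lck-cre replicate 5 or control replicate 1), the highest without Lck-cre replicate 6. Beyond the smaller number of samples or larger number of tested genes, the cause was not tested. No paired analysis was possible because the groups share no replicate numbers. Without read counts, counting error is not known.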
